A study of Mus musculus with 1392 samples.

Results

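Rora encodes the retinoic acid receptor-related orphan receptor alpha, a nuclear receptor, and its locus on mouse chromosome 9 was followed in single-cell ATAC-seq of haematopoietic stem cells. ATAC-seq reads open chromatin, because a transposase cuts accessible DNA and leaves sequencing adapters there. The members were all peaks of the deposited table that overlap chr9:68480000-69260000 (mm9), which spans the gene body, taken as about 68501000 to 69236000, and a margin on either side. This gave 77 of 115295 peaks, of which 74 touched the gene body, 2 lay before it and 1 after it. The locus was chosen from the old-against-young values themselves, in which its peak at 68788879 was called higher in old cells. The comparisons of the 2 ages at these peaks are therefore descriptions. Calls and fold changes come from a fit over the whole table, and nothing is supported with them here.

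The cells came from C57BL/6 bone marrow and were sorted as lineage-negative, Sca-1+, Kit+, CD150+, CD48-, CD34- and Vwf+. They were labelled young (332 cells) or old (1060 cells), with no treatment, and the labels used here give the ages in words only. Titles divide them into numbered sets, young 1 and 2 and old 1 to 3, of 151 to 380 cells. What a set is (animal, pool or plate) is not said in the labels, so the spread between sets may be technical, and age cannot be told apart from the preparation of a set. Totals ran from 1159957 to 4181770 counts a set, and median counts per cell from 3604.5 in old 3 to 11807 in young 2. The sort was not checked against marker genes, since no annotation of mm9 was used here.

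RORA binds DNA as a monomer at an AGGTCA motif preceded by an AT-rich stretch. It activates clock genes such as Bmal1, where the REV-ERB receptors repress, and also acts in lipid metabolism. In the blood system it is best known for its need in type 2 innate lymphoid cells and for a part in Th17 cells, and in the brain for the survival of Purkinje cells, which is lost in the staggerer mouse. The gene is long, and its isoforms start at several promoters. RefSeq (GRCm38.p6) lists 9 transcripts and a length of 734843 bp, close to the 735 kb taken here in mm9. In the order of that table the nearest protein-coding genes are Vps13c and C2cd4a before Rora and Ice2 and Anxa2 after it, and 5 long non-coding RNA genes overlap it (Gm31325, 9530091C08Rik, Gm31262, Gm46153 and Gm15511). A peak inside the window can therefore belong to one of these. Whether a peak lies in an exon or an intron was not analysed here.

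The 250 bases before the Rora start are shown because a peak that was open at both ages lay at the start of the gene body. RefSeq gives them on the plus strand at chr9:68653536-68653785 of GRCm38.p6, a position that cannot be set beside the mm9 positions of the peaks. Capitals mark each CG dinucleotide.

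Rora promoter: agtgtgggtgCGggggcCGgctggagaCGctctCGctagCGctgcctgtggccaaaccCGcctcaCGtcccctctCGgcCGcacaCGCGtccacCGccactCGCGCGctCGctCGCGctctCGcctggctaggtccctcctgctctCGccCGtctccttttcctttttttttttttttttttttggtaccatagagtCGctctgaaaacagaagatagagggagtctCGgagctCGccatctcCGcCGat

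This stretch held 26 CG dinucleotides, against a median of 6 over the 32851 promoters of the table, and 90.4% of promoters held fewer. Its G and C content was 61.2%, against a median of 52.4%, and a run of 21 T interrupts it. None of GATAA (the core of GATA sites), AGGTCA (the core bound by RORA), TGANTCA (the AP-1 motif) and TGTGGT (RUNX) was found on either strand, and these letters occur in 22.6%, 14.0%, 6.75% and 14.0% of all promoters. GGAA (the core of ETS sites) occurred 1 time, on the minus strand, and 93.4% of all promoters hold it on either strand. Overlaps among the motifs were allowed.

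The window was dense in peaks. It held 9.87 peaks per 100 kb, compared with 5.10 over chromosome 9, 1.54 in the window of equal length before it (12 peaks) and 5.90 in that after it (46 peaks). The widest peak spanned 2090 bp. Of the 77, 22 were under 300 bp (28.6%, against 29.8% of all peaks). The widest stretch without a peak was 47754 bp, from 68601577 to 68649331, and the median gap of 7319.5 bp was close to the 7164 bp of the table. At the edges of the window, the peak just inside before the gene, at 68482728, had a mean of 2.11 CPM (counts per 1000000 counts of a set over all peaks) in young and 3.21 in old sets, and the peak just outside, at 68291314, had 2.45 and 5.80. Beyond the gene, the peak just inside at 69245423 had 15.3 and 13.7 CPM, and the next outside, at 69287599, had 3.65 and 4.24.

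Most of these peaks carried few counts. The locus held 4883 counts in all, 60 of its 77 peaks had a count in every set, and only 27 passed the count filter of the test (35.1%, against 50.5% of all peaks). The 27 held 77.3% of the locus counts, with 36 to 562 counts each, and the other 50 held 3 to 48 each. A peak can pass through the age in which it is high, so the 27 are not a sample of all 77.

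A single site in this long gene was called different between old and young cells. Of the 27 tested peaks, 1 was called higher in old and 0 higher in young, by edgeR's quasi-likelihood test on the sets' summed counts, at a Benjamini-Hochberg adjusted p under 0.05. Over all 58167 tested peaks, 1.39% were called higher in old and 1.78% higher in young. The called peak chose the locus, so nothing is read from this count. The other 26 peaks had log2 fold changes of old over young from -0.87 to 1.54, with a median of -0.15, beside a median of -0.01 over all tested peaks. Their 95% intervals held 0 at 22 and did not at 4, of which 1 was higher in old and 3 higher in young, each at an unadjusted p under 0.05. These 4 are 15.4% of the 26, and 15.4% of all tested peaks pass that threshold by edgeR, 7.39% higher in old and 8.05% higher in young. DESeq2 also called 1 locus peak, the same one, out of 77 in its fit. Over the whole table it called 426 of the 115227 peaks in its fit. It gave some peaks no adjusted p, the one at 68934738 among them, and these could not be called. DESeq2 used the same counts, so its call is no separate support.

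The called peak lay at 68788879 to 68789362, 483 bp wide and 288 kb into the gene body, that is 39.2% of the way along it. It had 1.72 and 4.25 CPM in young 1 and 2 and 19.8, 32.0 and 32.3 in old 1, 2 and 3. Every old set was thus above both young sets, and old 1 was the lowest of the old ones. Young sets averaged 2.99 ± 1.78 CPM (SD, n = 2) and old sets 28.0 ± 7.10 (SD, n = 3). The fitted log2 fold change was 2.90, its standard error 0.40 and its 95% interval 2.12 to 3.67. These values rest on 2 and 11 counts in young 1 and 2 and on 83, 68 and 53 in old 1, 2 and 3. Summed over sets, the old level was 7.40 times the young one in CPM, with an exact (Clopper-Pearson) 95% interval of 4.23 to 14.1 for counting error only.

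**Figure D1:**
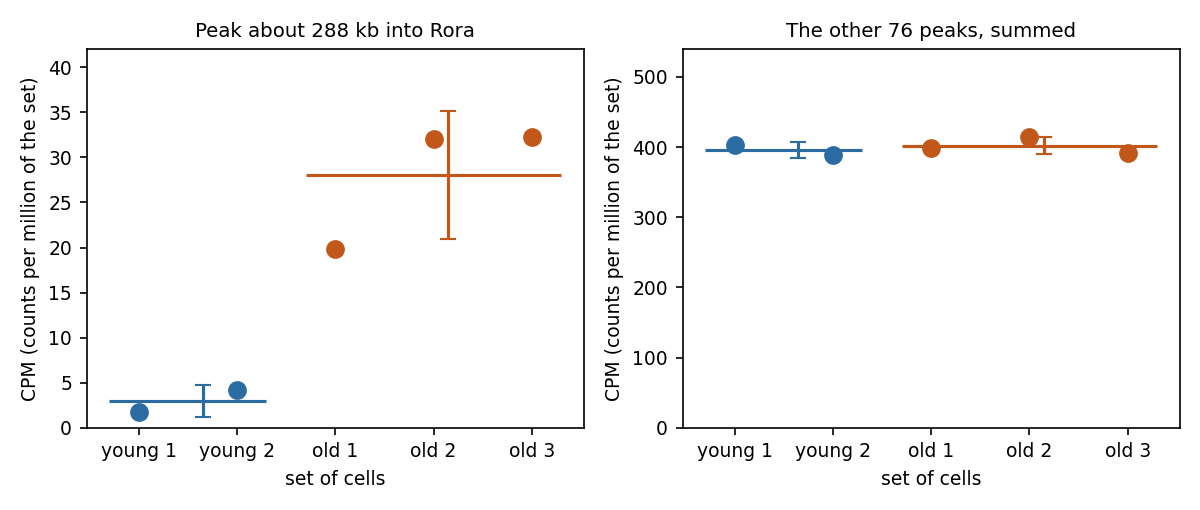
CPM of the called peak (left) and of the other 76 peaks of the Rora locus in sum (right) in each set, with the mean of each age as a line and its SD as a bar. The 3 old sets sit between 19.8 and 32.3 at the called peak and the young sets at 1.72 and 4.25, whereas the rest of the locus lies between 388.0 and 414.9 in all 5.

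The place of this site among the peaks of the locus differed between the ages. By mean CPM it ranked 33 of 77 in young and 3 of 77 in old sets. Per kilobase of peak width, its level was 6.18 ± 3.69 CPM per kb over young sets (rank 41) and 58.1 ± 14.7 over old sets (rank 1). The peak ranked 2 in old sets, at 68803832, had 37.0 ± 4.21 CPM per kb.

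The contrast with the next peak was close in space. Only 904 bp after the called peak, the peak at 68790266 to 68790776 had 17.2 and 12.4 CPM in young 1 and 2 and 16.7, 14.6 and 12.8 in old 1, 2 and 3. The ages overlapped there, and the log2 fold change was 0.00, with a 95% interval of -0.56 to 0.56. It was 0.21 without young 1 and -0.24 without young 2. The peak before the called one, 6520 bp away at 68782137, held only 0 to 8 counts a set. Of the counts in the called peak and the next one together, the called peak took 9.09% in young 1 (Wilson 95% interval 2.53 to 27.8%) and 25.6% in young 2 (14.9 to 40.2%). It took 54.2% in old 1 (46.3 to 61.9%), 68.7% in old 2 (59.0 to 77.0%) and 71.6% in old 3 (60.5 to 80.6%). This ratio within a site needs no scaling between sets. The intervals of the old sets lay above those of the young sets, but they cover counting error only. The called peak chose the locus by being higher in old cells, so nothing is read from this order either.

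Of all counts in the locus, the called peak held 0.426% in young 1 and 1.08% in young 2, and 4.74%, 7.16% and 7.63% in old 1, 2 and 3. Young sets averaged 0.754% ± 0.465 (SD, n = 2) and old sets 6.51% ± 1.55 (SD, n = 3), with no overlap. The choice of the locus by this same peak favours that order too.

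**Figure D2:**
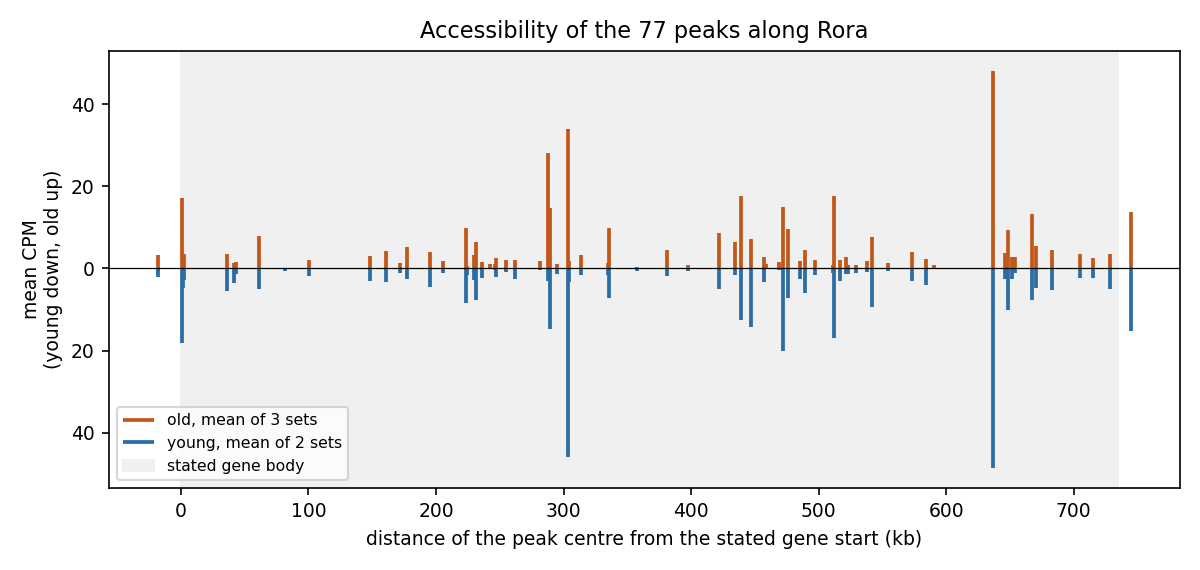
Mean CPM of each of the 77 peaks against its distance from the start taken for the gene body (shaded), with old sets drawn upwards and young sets downwards. The widest gap between the ages is at 288 kb, where old sets had 28.0 and young sets 2.99 CPM, and the largest in the other direction is at 303 kb, at 33.9 and 45.8 CPM.

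The start of the gene was open at both ages. The peak at 68500975 to 68502057, which overlaps the start taken for the gene, had 16.4 and 20.1 CPM in young 1 and 2 and 17.0, 18.3 and 15.8 in old 1, 2 and 3. The ages overlapped, and the log2 fold change of -0.20 had a standard error of 0.28. It was -0.31 without young 1 and 0.02 without young 2. At the other end, the peak nearest the end of the gene body, at 69229407, was not tested. There the 2 young sets held 5.17 and 4.63 CPM and the 3 old sets 4.30, 3.29 and 3.05, all below the young ones on 48 counts in all.

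The highest signal of the locus lay far into the gene, at 69137068 to 69139158, a peak 2090 bp wide at 637 kb. It held 46.6 and 50.6 CPM in young 1 and 2 and 45.7, 49.4 and 49.4 in old 1, 2 and 3. The log2 fold change was -0.11 (standard error 0.21).

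Next in level was the peak at 68803832 to 68804749, about 15 kb beyond the called one. It had 53.5 and 38.2 CPM in young 1 and 2 and 33.2, 38.1 and 30.5 in old 1, 2 and 3, and all old sets lay below the young ones, old 2 only just. With each cell counted once the log2 fold change moved from -0.47 (standard error 0.22) to -0.28, and the peak was not called in either fit. It was -0.24 without young 1 and -0.70 without young 2.

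Of the remaining 6 among the 10 highest by CPM, 5 had sets that overlapped between ages. They lay at 69012949 (17.3 CPM over the 5 sets, log2 fold change -0.11), 68972821 (17.0, -0.60), 68939823 (15.6, 0.38) and 69245423 (14.4, -0.18), beside the peak at 68790266 described above. The exception was 69167540, with 6.90 and 8.49 CPM in young and 11.7, 14.6 and 13.4 in old sets, where every old set was higher. Its log2 fold change of 0.64 had a standard error of 0.35, and it was not called. At 68972821, 1 cell held 19 of its 195 counts, and with each cell counted once per peak the log2 fold change was -0.21, as it was without young 2. Without young 2, the value at 69012949 turned to 0.49 and that at 68939823 became 0.89. Without young 1 they were -0.38 and 0.16.

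Compared per kilobase over the 5 sets, the order of levels was led by 68803832 (42.2 ± 9.69 CPM per kb, SD over 5 sets), 68947898 (40.6 ± 25.9), the called peak (37.3 ± 30.3), 68790266 (28.9 ± 4.36), 69137068 (23.1 ± 1.00) and 69012949 (21.5 ± 4.51). Neighbours in this order differed by less than the larger SD of the pair, except 68790266 from 69137068. The SD of the called peak holds the difference between the ages.

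**Figure D3:**
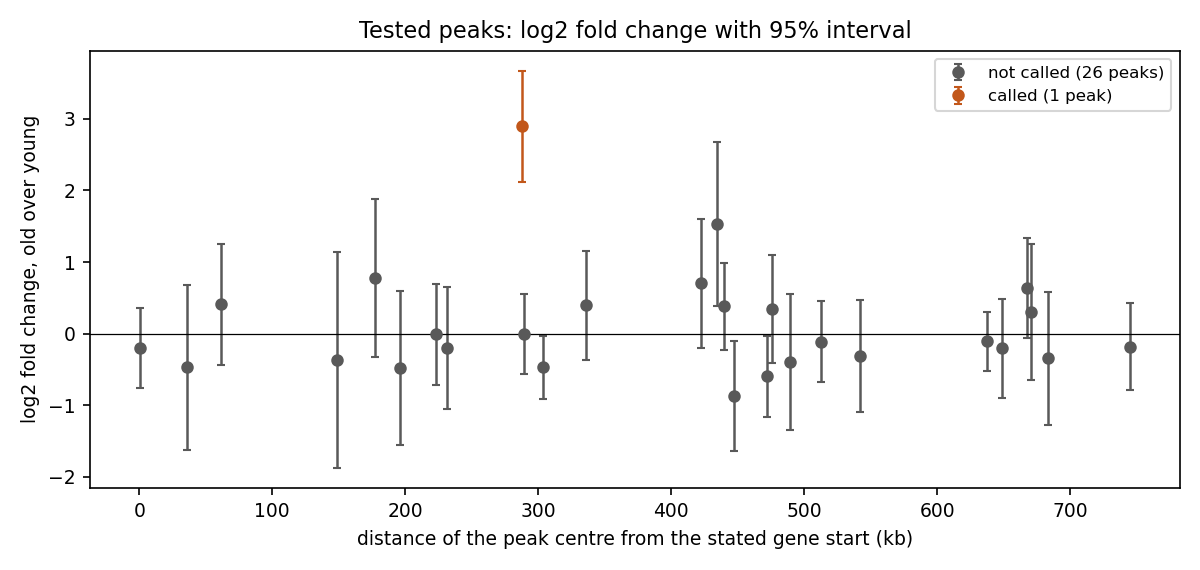
Log2 fold change of old over young for the 27 tested peaks against distance from the start taken for the gene, with 95% intervals from the edgeR fit. The called peak at 288 kb stands at 2.90, and the other 26 lie between -0.87 and 1.54.

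Among peaks that were not called, the largest fitted difference was at 68934738 to 68935498. It had no count in young 1, 3.09 CPM in young 2 and 6.22, 7.53 and 5.48 CPM in old 1, 2 and 3. All old sets were above the young ones, and the fit put the log2 fold change at 1.54 (standard error 0.58). It rests on 8 young counts, all of them in young 2. Against young 1 alone, with a floor of 3 counts in that set, old cells were at least 2.48-fold higher.

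The largest in the other direction was the narrow peak at 68947898 to 68948144, 246 bp wide. It had 20.7 and 7.72 CPM in young 1 and 2 and 6.93, 10.3 and 4.27 in old 1, 2 and 3, so that young 1 stood above the other sets, which overlapped. Its 5 highest cells held 25.5% of its counts. The log2 fold change was -0.87 (standard error 0.39), and -0.46 with each cell counted once.

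Both peaks passed the threshold when young 2 was left out, which brought the called peaks to 3, 2 of them higher in old. For the narrow peak the log2 fold change was -1.54 without young 2 and -0.16 without young 1. For the peak at 68934738 it was 0.97 without young 1.

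The other peaks named for large fitted differences had log2 fold changes of 0.78 at 68677779, 0.70 at 68922702, 0.41 at 68562183, -0.48 at 68696572 and -0.47 at 68537037, with standard errors from 0.43 to 0.59. Their intervals all held 0. Without young 1 the value at 68537037 turned to 0.15 and that at 68562183 fell to 0.15, and without young 2 they were -1.14 and 1.10. At 68677779 the value was 0.51 without young 1 and 1.53 without young 2, and at 68922702 it was 0.96 and 0.35. At 68677779 and 68562183 the old sets were above both young sets, at 5.50, 5.17 and 4.88 CPM against 1.72 and 3.48, and at 6.93, 7.53 and 9.14 against 3.45 and 6.56. With TMM scaling, that of the edgeR fit, the ages overlapped at 68562183. At the other 3 the ages overlapped.

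Counting only whether the sets of the ages were apart, every old set was above every young set at 7 of the 27 tested peaks (25.9%), where 20.1% of all tested peaks are so. Every old set was below every young set at 1 (3.70%), where 12.9% are so. Neither share is read as a result, since the called peak is one of the 7 and the count of tested peaks is small. With TMM scaling these counts were 5 and 1, beside 16.4% and 16.7% of all tested peaks. Of the 50 peaks that were not tested, 11 (22.0%) had all old sets above and 1 (2.0%) had all old sets below, where 18.2% and 9.2% of all peaks not tested are so. With TMM scaling they were 10 and 2, beside 16.2% and 10.7%. The peak at 69091532 held no young count and 7 old ones, and the peak at 68582230 no old count and 3 young ones, too few for a fold.

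The sum over the locus differed by far less than the called peak did. All 77 peaks together held 405.2 and 392.3 CPM in young 1 and 2 and 419.0, 446.9 and 423.6 in old 1, 2 and 3, a log2 ratio of 0.11. The old sets were all above the young ones in these unscaled CPM. With TMM scaling the ages overlapped, at 468.2 and 455.9 in young and 459.5, 494.9 and 461.5 in old sets, and the log2 ratio was 0.031. Without the called peak the unscaled sums were 403.5 and 388.0 CPM in young and 399.1, 414.9 and 391.3 in old sets, which overlapped, and averaged 395.8 ± 10.9 (SD, n = 2) and 401.8 ± 12.1 (SD, n = 3). Their log2 ratio was 0.02, and -0.06 with TMM scaling, again with overlap.

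By position, the gene body was divided into 3 parts of 245 kb. The first held 22 peaks, which summed to 82.7 CPM in young and 82.9 in old sets on average (log2 ratio 0.00). The middle part held 28 peaks, the called one among them, and averaged 161.6 ± 6.80 CPM over young sets and 185.6 ± 12.5 over old sets (log2 ratio 0.20). Without the called peak these means were 158.6 ± 8.59 and 157.5 ± 10.2, with overlap between the ages. The last part held 24 peaks with 136.0 ± 2.10 and 143.9 ± 5.33 CPM, a log2 ratio of 0.08, with the old sets at 140.4 to 150.1 and the young at 134.5 and 137.5. With TMM scaling the last part overlapped between the ages (log2 ratio 0.00). The first part then lay lower in old, at 88.7, 90.1 and 94.3 against 96.6 and 95.1 in young sets (log2 ratio -0.07). The middle part, with the called peak in it, stayed higher in every old set, at 194.1, 221.4 and 195.9 against 192.3 and 182.2 (log2 ratio 0.12). Its TMM-scaled sum without the called peak was not computed. Over the whole locus that sum had a log2 ratio of -0.06, with overlap between the ages.

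The windows of equal length on either side held no called peak by edgeR or DESeq2, among 6 tested by edgeR before and 11 after the locus. At an unadjusted p under 0.05, which 15.4% of all tested peaks pass, edgeR gave 2 before and 1 after. Before it, the sum was 57.8 and 51.4 CPM in young and 63.4, 63.5 and 80.4 in old sets (log2 ratio 0.34), every old set higher. The highest fold there was at 68082260, 418 kb before the gene body, where 3 young counts, all in young 1, stood against 30, 7 and 10 in old 1, 2 and 3. Its log2 fold change was 2.63 (standard error 0.82), and it was not called. After the locus, the sum was 178.5 and 195.0 CPM in young and 193.2, 182.5 and 168.8 in old sets, which overlapped.

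The counts of the called peak came from many cells. In old sets 162 of 1060 cells had a count there, of which 125 had 1, 33 had 2, 3 had 3 and 1 had 4. In young sets 9 of 332 cells had a count, 5 with 1 and 4 with 2. Its 5 highest cells held 6.91% of its counts. The share of cells with a count was 1.10% in young 1 and 4.64% in young 2, and 20.9%, 14.2% and 11.8% in old 1, 2 and 3. Cells with a count were deeper in 4 of the 5 sets. In young 2, the 7 cells with a count had a median of 36206 counts over all peaks and the others 11603, and in old 1 the medians were 21192 and 5899. In young 1 alone the order was the other way, at 4794 and 6143, for 2 cells with a count.

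Cells were then thinned to 1906 counts, the 10th percentile over all cells, which leaves 1252 cells. The shallower cells left out numbered 4 in young 1, 5 in young 2, and 84, 13 and 34 in old 1, 2 and 3. At the called peak, 0.565% of thinned cells had a count in young 1 (Wilson 95% interval 0.0998 to 3.13%). The share was 0.685% in young 2 (0.121 to 3.78%). It was 3.60% in old 1 (1.84 to 6.95%), 5.99% in old 2 (3.99 to 8.91%) and 5.29% in old 3 (3.37 to 8.21%). Every old set was above both young sets, though the young shares are 1 cell each the interval of old 1 overlaps both of theirs, and that of old 3 overlaps young 2. Thinning leaves 2 young and 52 old counts, a ratio of 9.04 with an exact 95% interval of 2.38 to 76.6.

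At the same depth, the next peak was found in 2.82% and 2.74% of young 1 and 2 cells and in 2.70%, 1.63% and 2.94% of old 1, 2 and 3 cells, with overlap between ages. The called peak was the less often detected one in both young sets and the more often detected one in all 3 old sets, by counts of 1 and 5 and of 1 and 4 cells in young, and of 8 and 6, 22 and 6, and 18 and 10 cells in old. The Wilson intervals of the 2 peaks overlapped in every set except old 2. The called peak chose the locus by being higher in old cells, so nothing is read from this order.

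**Figure D4:**
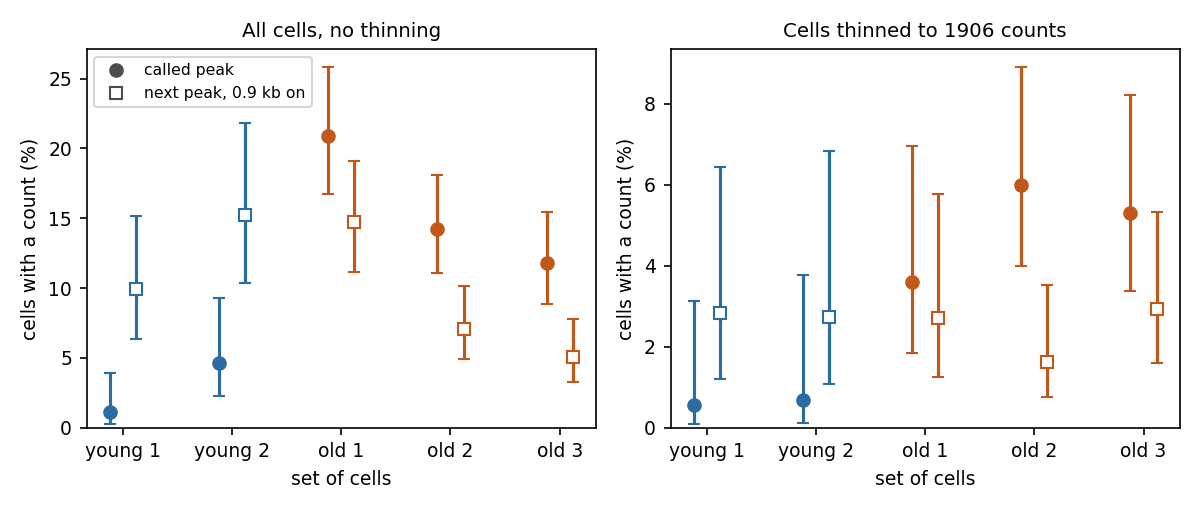
Share of cells with a count at the called peak (filled circles) and at the next peak, 904 bp on (open squares), in each set, for all cells as deposited (left) and for cells thinned to 1906 counts (right), with Wilson 95% intervals. At equal depth the called peak was found in 0.565% and 0.685% of young and 3.60% to 5.99% of old cells.

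Over the locus as a whole, the order of the ages in the share of cells with any count changed with depth. Thinned to 1906 counts, 50.3% and 47.3% of young 1 and 2 cells had a count in at least 1 locus peak, against 52.7%, 56.1% and 53.5% of old 1, 2 and 3 cells. Thinned to 2951 counts the shares were 67.9% and 66.9% in young and 66.3%, 65.7% and 71.7% in old sets, which overlapped. Without thinning they were 80.1% and 89.4% in young and 73.5%, 80.8% and 72.7% in old sets, with the means in the opposite order. The mean number of locus counts per cell at 1906 counts averaged 0.740 ± 0.0878 over young sets (SD, n = 2) and 0.783 ± 0.0845 over old sets (SD, n = 3), and differed by less than either SD.

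Most thinned cells showed 0 or 1 open locus peak. In young sets a mean of 51.2% of cells had none, 33.5% had 1, 11.2% had 2 and 4.03% had 3 or more. In old sets these means were 45.9%, 37.4%, 13.6% and 3.16%. Among thinned old cells with a count at the called peak, 29 of 48 (60.4%, Wilson 95% interval 46.3 to 73.0%) also had a count elsewhere in the locus, against 457 of 881 cells without one (51.9%, 48.6 to 55.2%). These intervals pool cells over the old sets and leave out the spread between sets. In old 1, 37.5% of 8 cells with the called peak had another locus peak, against 50.9% of cells without it. The shares were 63.6% of 22 cells against 53.3% in old 2, and 66.7% of 18 cells against 50.9% in old 3. The order in old 1 was thus the reverse of that in old 2 and old 3. The thinned young sets had 2 cells with the called peak, too few for a share.

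Of peaks elsewhere in the table, the 3 most like the called one were sought by Euclidean distance on log2(CPM + 1) over the 5 sets. They lay on chromosome 10 at 86339588 to 86340348 (distance 0.693), chromosome 14 at 58872190 to 58872896 (0.912) and chromosome 2 at 160050949 to 160051602 (0.947). The first had 1.72 and 5.02 CPM in young and 14.3, 24.0 and 26.2 in old sets, lowest in old 1 among the old sets as at the Rora peak. The other 2 had log2 fold changes of 2.07 and 2.19. All 3 were called higher in old, which their choice by likeness to a called peak favours.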

How the data were processed

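The deposited table gives a whole-number count for each peak in each cell, which the authors left unscaled. Per the submitters' processing notes, Trim Galore, Bowtie2, Picard, SAMtools and FastQC were used with build mm9. For the peak caller, the counting of reads or fragments, cut-site shifts and cell filters, the sources used here give nothing. Peaks called on pooled cells would favour sites open in the age with more reads, and duplicates that were kept would raise counts of single cells.

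Columns were matched to samples by title. Counts were summed per set, and all peaks were fitted together with edgeR 4.0.16 in R 4.3.3 (TMM scaling, the filterByExpr filter at a minimum of 10 counts and the robust quasi-likelihood test). Intervals of fold changes are 1.96 standard errors. The fit was also run on simulated data with the same spread set for every peak. That run does not show how the fit behaves at the spread of these sets, and nothing is drawn from it. DESeq2 1.42.0 was an alternative. CPM are relative to all counts of a set, except with TMM scaling. TMM-scaled CPM are relative to the counts in tested peaks times the TMM factor. In young 1 this total was 1003816, against 1159957 counts over all peaks, so the levels of the 2 scales differ. Thinning drew counts without replacement. Intervals for counts and shares, and the floor of 3 counts, cover counting error only.

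Peaks are named by rule: every called peak, the 10 highest by CPM, the 10 largest fold changes not called, and those nearest the ends of the gene. The members, lists and motifs were chosen with earlier results of these data known.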

Additional observations from a re-analysis of the deposited data

How the results depend on the processing

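The called peak kept its direction and stayed called under all 15 alternatives in which it was tested. Its log2 fold change ran from 2.59 without young 1 to 3.89 without young 2, where only 2 young counts were left and the CPM ratio was 14.9 with an exact 95% interval of 4.07 to 123.7. It was 3.12 in thinned cells, with the highest adjusted p of these fits by edgeR (0.0129), and 2.97 with DESeq2. In thinned cells the peak had 1 count in young 1 and 1 in young 2. All these fits reuse counts that chose the peak, so they are no separate support. In every alternative that kept both young sets, 1 locus peak was called, the same one. The fit without young 2 differed, as described above. Only 3 locus peaks were tested in thinned cells, 9 at a minimum count of 30 and 14 with equal numbers of cells. The count had little room to vary there. Over the whole table, 188 of 13871, 769 of 22788 and 801 of 31597 tested peaks were called in these fits. With 1 young set left, its spread was taken from the old sets. Young and old sets share numbers 1 and 2, and the correlation of their deviations was -0.0765 for number 1 and -0.000836 for number 2, which gave no ground for pairing. A fit with a replicate block for the set number called 1 locus peak, at a log2 fold change of 2.98.

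For the sum over the locus (log2 ratio 0.11), TMM-adjusted totals gave 0.031, cells of 2000 to 40000 counts 0.16 and the sum without the called peak 0.022. TMM scaling of single peaks and of parts of the gene was added after seeing the data. The share of cells with a locus count, 5.35 percentage points higher in old, was 0.470 with cells thinned to 2951 counts, 2.39 over tested peaks and -9.08 without thinning, and locus counts per cell differed by -1.30 without thinning. The 2 values without thinning keep each cell's own depth, and the cause of the other moves was not tested. The count filter left 50 of 77 peaks untested, and standard errors of 0.21 to 0.77 (log2) limit what could be seen at the 27 others.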
